A study of Mus musculus with 30 samples.

Results

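The proteasome genes described here were the 44 genes, of 36103 in the count table, whose symbol is Psma, Psmb, Psmc, Psmd, Psme or Psmf followed by a number. They were taken by symbol alone, so the immunoproteasome genes Psmb8, Psmb9 and Psmb10 and the thymus gene Psmb11 are among them, while proteasome genes with other symbols (Pomp, Adrm1, Sem1) are not. RNA was sequenced from whole gastrocnemius (a fast hindlimb muscle), diaphragm, heart and liver of male mice at 5 weeks, on a pure 129Pas background. Mtm1-/y mice carry a germline knock-out of the X-linked gene for myotubularin, a phosphoinositide phosphatase, in every cell, and were compared with wild-type (WT) littermates that carry no engineered allele. The 30 libraries were 4 WT and 4 Mtm1-/y for gastrocnemius and for heart, 4 WT and 3 Mtm1-/y for diaphragm, and 3 WT and 4 Mtm1-/y for liver. Each library is a separate mouse by the study's methods, and whether libraries of different tissues share mice is not given in the sources used here. Since whole organs were used, fewer cells of a type and less RNA per cell cannot be told apart.

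The proteasome is the barrel-shaped protease that degrades ubiquitin-tagged proteins. Its core particle is built from outer rings of alpha subunits (Psma) and inner rings of beta subunits (Psmb), of which Psmb5, Psmb6 and Psmb7 carry the catalytic sites. The regulatory particle holds a ring of ATPases (Psmc) that unfolds substrates and subunits without ATPase activity (Psmd) that bind and deubiquitinate them, and other caps (Psme) can take its place. In muscle the proteasome takes a large part in the breakdown of myofibrillar protein during atrophy, and interferon signalling replaces the catalytic subunits by Psmb8, Psmb9 and Psmb10 to form the immunoproteasome, which is abundant in leukocytes.

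Each library held 24873817 to 44289343 counts. Mtm1 checked the labels: it lay at 12.9 to 31.1 plain CPM (counts scaled to the library total alone) in the WT libraries of the 4 tissues and at 3.28 to 6.09 in the Mtm1-/y libraries. Levels below are CPM after TMM scaling unless stated otherwise, log2 fold changes are Mtm1-/y over WT and carry a standard error (SE), and a gene is said to rise or fall only at an adjusted p under 0.05 in edgeR's quasi-likelihood test, adjusted over all genes tested in that tissue. After the filter on low counts 42 of the 44 members were tested in gastrocnemius, where Psma8 and Psmb11 were too low, and 43 in each other tissue, where Psmb11 was too low. The diaphragm libraries held liver RNA in very unequal amounts, from 482 to 50346 plain CPM summed over 10 hepatocyte markers, and the Mtm1-/y liver library 2 held 32.4 plain CPM of 12 leukocyte markers summed, the lowest value among the 7 liver libraries.

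In the gastrocnemius of Mtm1-/y mice 11 proteasome genes rose and 2 fell, all by less than 1 on the log2 scale. The largest rises were those of Psmb4, a beta subunit without a catalytic site, by 0.44 (SE 0.11, n = 4 and 4), and of Psmd11, a scaffold of the regulatory particle's lid, by 0.43 (SE 0.08). The falls were those of Psme4, the PA200 cap, with a log2 fold change of -0.49 (SE 0.08), and of Psma3, an alpha ring subunit, with -0.36 (SE 0.10). Together 13 of the 42 members tested were called, or 31.0%, while 29.0% of all genes tested in this tissue were called. The 11 that rose set against 14.1% of all genes rising, and the 2 that fell against 14.9% falling, so more members rose and fewer fell than the same shares of all genes would give, and the total called was near that background. The median log2 fold change of the 42 members was 0.13, beside 0.02 over all 15456 genes tested, and 33 of the 42 lay above 0 where 51.8% of all genes did. No member changed by more than 1 on the log2 scale, as 6.63% of all genes did.

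These directions are relative to the scaling of the libraries, which mattered in this tissue. The proteasome genes took 0.352% to 0.375% of all counts in the 4 WT libraries and 0.449% to 0.525% in the 4 Mtm1-/y libraries, with no overlap. Over the same libraries the sum of 8 skeletal muscle markers was 182401 to 202869 plain CPM in WT and 138108 to 151464 in Mtm1-/y. With the library totals as the scale, the median of all genes moved by 0.34 on the log2 scale, 92.2% of all calls were rises in place of 48.5%, and 37 members rose and 0 fell, or 88.1% of those tested beside 53.7% of all genes. On that scale Psme4 (log2 fold change -0.15, adjusted p = 0.105, edgeR) and Psma3 (-0.02, adjusted p = 0.859) no longer passed. A change of scale moves the members and all genes alike, so the distance between their medians was 0.11 on both scales. It thus hardly depends on the scale and cannot tell which scale to choose. In the other tissues the share of counts taken by the members was 0.336% to 0.354% in WT and 0.349% to 0.425% in Mtm1-/y diaphragm, 0.320% to 0.357% and 0.333% to 0.358% in heart, and 0.302% to 0.314% and 0.292% to 0.319% in liver. The Mtm1-/y diaphragm library at 0.349%, within the WT range, was the one with 50346 plain CPM of hepatocyte markers. The WT diaphragm libraries 1 to 4 had shares of 0.336%, 0.344%, 0.353% and 0.354% at 40263, 25294, 482 and 31262 plain CPM of these markers. The part of liver RNA in the share was not tested.

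**Figure D1:**
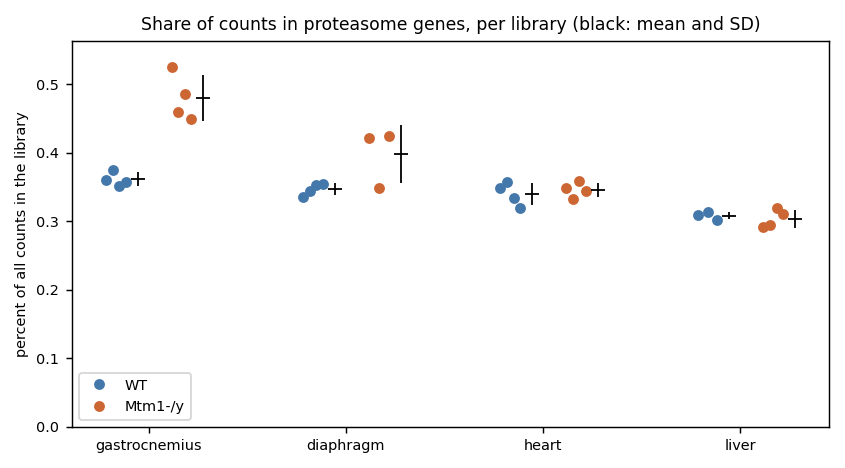
Percent of all counts in a library that fell on the 44 proteasome genes (y axis) in the 4 tissues (x axis). Points are libraries, WT in blue and Mtm1-/y in orange, and black marks give the mean and SD. The Mtm1-/y gastrocnemius libraries sit between 0.449% and 0.525%, all above the WT libraries of that tissue.

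The sequence before the start of 3 of these genes is shown because they are the rise with the smallest p and both falls, and that of Psmb5, a catalytic subunit gene that was not called, because it holds a match to the antioxidant response element core, the motif bound by the factors that drive proteasome genes (Nfe2l1, Nfe2l2). Each is the 250 bases before the start that RefSeq gives on GRCm38.p6, read 5′ to 3′ on the gene's strand, and capitals mark matches to a motif. Psmd11 lies at chr11:80428365-80428614 (plus strand), Psme4 at chr11:30771525-30771774 (plus strand), Psma3 at chr12:70974373-70974622 (plus strand) and Psmb5 at chr14:54617996-54618245 (minus strand). The GENCODE starts of Psme4 (30771726), Psma3 (70974621) and Psmb5 (54618022) differ from these and lie inside the windows. By that annotation the last bases of these windows are within the gene.
Psmd11: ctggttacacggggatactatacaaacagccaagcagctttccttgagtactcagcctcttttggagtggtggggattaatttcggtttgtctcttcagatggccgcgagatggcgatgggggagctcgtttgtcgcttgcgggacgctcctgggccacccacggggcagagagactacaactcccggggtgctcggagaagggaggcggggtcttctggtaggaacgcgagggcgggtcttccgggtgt
Psme4: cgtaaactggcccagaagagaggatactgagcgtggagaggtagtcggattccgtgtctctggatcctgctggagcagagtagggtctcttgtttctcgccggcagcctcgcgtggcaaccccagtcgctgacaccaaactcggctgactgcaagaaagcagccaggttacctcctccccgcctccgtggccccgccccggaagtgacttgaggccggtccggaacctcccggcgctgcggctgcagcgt
Psma3: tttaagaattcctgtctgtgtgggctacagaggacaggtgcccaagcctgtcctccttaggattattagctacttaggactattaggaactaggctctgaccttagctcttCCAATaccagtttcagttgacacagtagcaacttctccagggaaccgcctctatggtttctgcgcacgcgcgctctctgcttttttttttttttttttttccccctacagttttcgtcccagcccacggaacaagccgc
Psmb5: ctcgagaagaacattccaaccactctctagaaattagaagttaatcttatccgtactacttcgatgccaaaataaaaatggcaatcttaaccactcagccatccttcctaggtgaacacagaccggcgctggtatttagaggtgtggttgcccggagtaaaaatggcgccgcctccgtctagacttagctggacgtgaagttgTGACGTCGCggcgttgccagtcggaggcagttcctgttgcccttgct
The 3 motifs were searched on both strands in the windows of the members with an entry, 37 of 44 with 40 windows, and in 32851 windows of all genes, and no matches of different motifs overlapped in a member. The CCAAT box (CCAAT) was in 35.0% of the members' windows and 33.8% of all. The antioxidant response element core (TGACNNNGC) was in 12.5% and 10.2%, and the interferon-stimulated element core (GAAA, 2 bases of any kind, GAAA) in 7.50% and 2.98%, which is 3 of 40 windows, those of Psmb3, Psmd4 and Psmd9. Psma3 has a CCAAT from base -139 to -135 and Psmb5 an antioxidant core from -47 to -39, counted back from the start. The windows of Psmd11 and Psme4 hold none of the 3 motifs. Of the 12 windows of members called in gastrocnemius, 3 held a CCAAT box and 0 held either of the other motifs.

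In the alpha ring, which gates the entry to the core particle, 2 of the 7 members tested in gastrocnemius rose and 1 fell. Psma3 (chr12:70974621-70996347) lay at 34.6, 41.0, 34.0 and 37.5 CPM in WT and at 29.4, 29.7, 31.3 and 23.9 CPM in Mtm1-/y. All Mtm1-/y libraries were below all WT libraries (log2 fold change -0.36, SE 0.10, edgeR adjusted p = 0.0196), but the call was lost without WT library 2 (adjusted p = 0.0573). Psma5 (chr3:108256926-108279974) lay at 18.0, 18.1, 15.2 and 18.2 CPM in WT and at 22.6, 21.5, 20.1 and 19.5 CPM in Mtm1-/y. Psma7 (chr2:180036374-180042433) lay at 88.4, 99.8, 87.6 and 99.5 CPM in WT and at 135, 103, 113 and 109 CPM in Mtm1-/y. Both genes were higher in every Mtm1-/y library, Psma5 by 0.27 (SE 0.08, edgeR adjusted p = 0.0357) and Psma7 by 0.29 (SE 0.09, adjusted p = 0.0393). These calls were less stable than that of Psma3: each was lost in 6 of the 8 fits that left out 1 library, with adjusted p up to 0.0899 for Psma5 and 0.103 for Psma7. Psma1, Psma2, Psma4 and Psma6 were not called, with log2 fold changes of 0.11, 0.09, 0.15 and -0.09.

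Of the beta subunits without a catalytic site, Psmb1 and Psmb4 rose and Psmb2 and Psmb3 were not called. Psmb4 (chr3:94884093-94886961), whose product closes the assembly of a beta ring, lay at 85.1, 103, 83.4 and 104 CPM in WT and at 153, 115, 117 and 124 CPM in Mtm1-/y (edgeR adjusted p = 0.0159). Psmb1 (chr17:15475021-15499751) lay at 101, 110, 97.1 and 97.6 CPM in WT and at 127, 118, 120 and 117 CPM in Mtm1-/y. It rose by 0.25 on the log2 scale (SE 0.06, edgeR adjusted p = 0.0145), and for both genes the groups did not overlap. None of the 3 constitutive catalytic subunits was called. Psmb5, the chymotrypsin-like site and the one of them with the smallest p, lay at 13.2, 15.0, 12.8 and 15.0 CPM in WT and at 15.7, 15.4, 16.4 and 15.7 CPM in Mtm1-/y. Its groups did not overlap, but the difference of 0.17 (SE 0.08, edgeR adjusted p = 0.118) was not called. Psmb6 and Psmb7 had log2 fold changes of 0.04 and -0.14.

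The immunoproteasome subunits did not move together. Psmb10 (chr8:105935735-105938444), which replaces Psmb7, lay at 11.9, 11.8, 9.02 and 11.3 CPM in WT and at 14.5, 15.5, 13.2 and 13.9 CPM in Mtm1-/y, and rose by 0.38 (SE 0.10, edgeR adjusted p = 0.0216) with no overlap between the groups. Psmb8, which replaces Psmb5, lay at 3.20, 3.56, 3.33 and 3.81 CPM in WT and at 3.93, 3.21, 3.80 and 3.50 CPM in Mtm1-/y. Psmb9, which replaces Psmb6, lay at 1.64, 2.75, 1.62 and 2.19 CPM in WT and at 1.82, 2.03, 2.04 and 2.26 CPM in Mtm1-/y. The groups overlapped for both, with log2 fold changes of 0.06 (SE 0.13, edgeR adjusted p = 0.768) and -0.005 (SE 0.21, adjusted p = 0.988). Markers of leukocytes, in which the immunoproteasome is abundant, moved with genotype in this tissue: all 9 of the 12 markers that could be tested rose, with a median log2 fold change of 1.76, their sum was 32.4 to 57.6 plain CPM in WT and 145 to 187 in Mtm1-/y, and none was at 0 in all libraries. Of 8 white adipocyte markers 6 rose. The part of these cells in the values of Psmb8, Psmb9 and Psmb10 was not tested.

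None of the 6 ATPases of the regulatory particle was called, though all 6 had a log2 fold change above 0, from 0.08 to 0.20. Psmc4, the one with the smallest p, lay at 92.0, 98.6, 84.6 and 104 CPM in WT and at 118, 100, 111 and 105 CPM in Mtm1-/y, with overlapping groups (log2 fold change 0.20, SE 0.08, edgeR adjusted p = 0.0927). Among the 11 regulatory subunits without ATPase activity 4 rose and 0 fell. Psmd11 (chr11:80428615-80473248) lay at 81.9, 90.9, 86.0 and 83.0 CPM in WT and at 130, 112, 114 and 103 CPM in Mtm1-/y (edgeR adjusted p = 0.00328), the smallest p of any member that rose. Psmd13 (chr7:140881968-140898643), another lid subunit, lay at 82.4, 88.6, 79.4 and 90.9 CPM in WT and at 116, 101, 101 and 106 CPM in Mtm1-/y. Psmd3 (chr11:98682554-98695979), also of the lid, lay at 117, 119, 107 and 129 CPM in WT and at 153, 137, 135 and 140 CPM in Mtm1-/y. The groups did not overlap for either, with rises of 0.31 (SE 0.07, edgeR adjusted p = 0.00947) and 0.26 (SE 0.07, adjusted p = 0.0234). The fourth was Psmd14, the deubiquitinase of the lid, which rose by 0.21 (SE 0.07, edgeR adjusted p = 0.0417).

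Psmd5, Psmd9 and Psmd10 are chaperones that help to assemble the ATPase ring and are not part of the finished particle. Psmd5 (chr2:34849734-34874968) lay at 22.1, 22.8, 22.4 and 22.2 CPM in WT and at 32.8, 29.4, 28.3 and 23.0 CPM in Mtm1-/y, a rise of 0.34 (SE 0.10, edgeR adjusted p = 0.0284) in which Mtm1-/y library 4 lay just above the WT libraries. Psmd9 and Psmd10 were not called, with log2 fold changes of -0.22 and 0.31.

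Of the 5 genes for caps and the inhibitor, 1 fell and 1 rose. Psme4 (chr11:30771726-30880361), the large single-chain cap PA200, lay at 358, 427, 421 and 391 CPM in WT and at 306, 284, 281 and 264 CPM in Mtm1-/y, with no overlap and the smallest p of any member (edgeR adjusted p = 0.00164). Psme2 (chr14:55587441-55591113), a subunit of the interferon-inducible PA28 cap, lay at 8.91, 8.89, 8.03 and 8.85 CPM in WT and at 10.4, 11.2, 9.54 and 10.3 CPM in Mtm1-/y. It rose by 0.26 (SE 0.08, edgeR adjusted p = 0.0455), a call that DESeq2 did not make (adjusted p = 0.0694). DESeq2 called 12 members, beside 25.7% of all genes with an adjusted p. Its partner Psme1, the nuclear cap Psme3 and the inhibitor Psmf1 were not called, with log2 fold changes of -0.08, 0.02 and -0.06. The plot of the called genes by library shows these values.

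**Figure D2:**
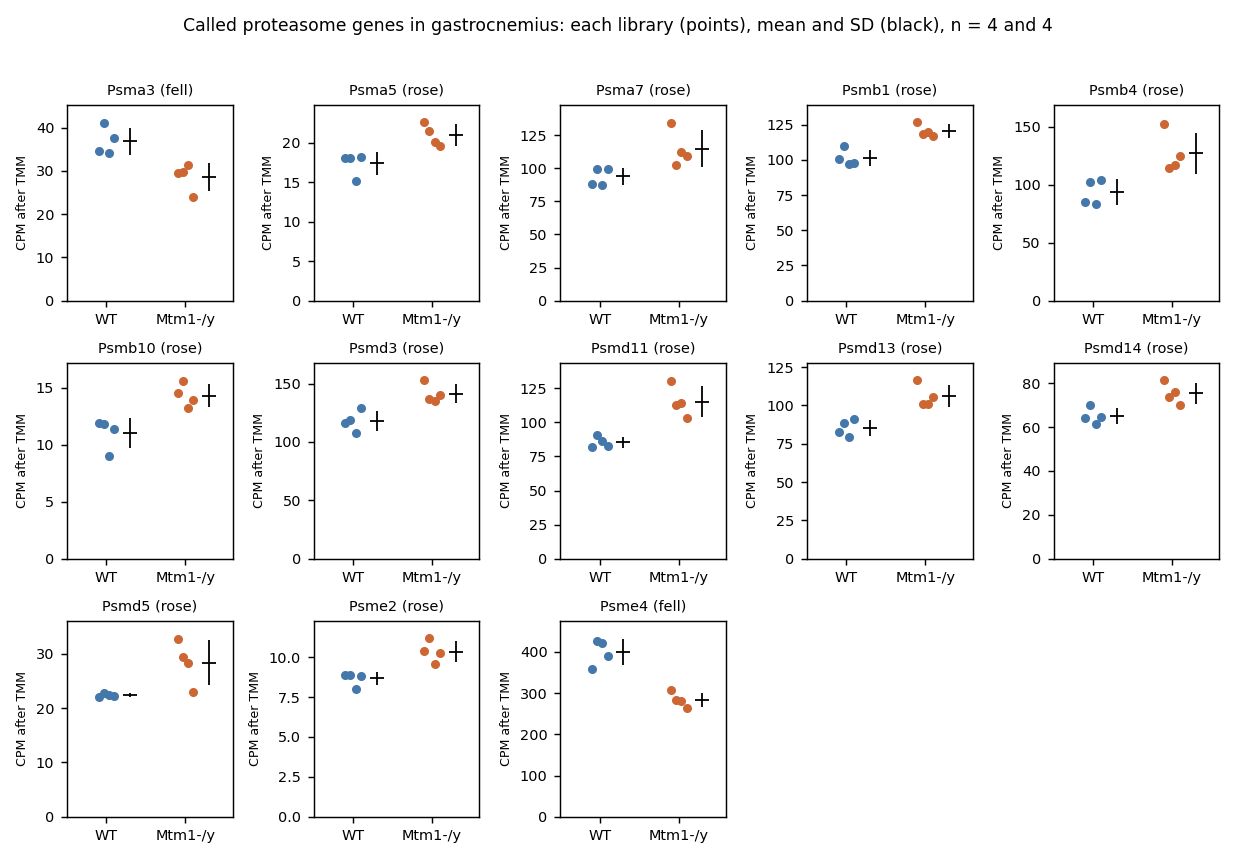
CPM after TMM (y axis, from 0) of the 13 proteasome genes called in gastrocnemius, 1 panel a gene, for the 4 WT (blue) and 4 Mtm1-/y (orange) libraries, with the mean and SD in black. In every panel the WT and Mtm1-/y libraries do not overlap, with Psma3 and Psme4 lower and the other 11 higher in Mtm1-/y.

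With each of the 8 gastrocnemius libraries left out in turn, 6 of the 13 kept their call every time (Psmb1, Psmb4, Psmb10, Psmd11, Psmd13 and Psme4) and 7 lost it at least once. Psme2 lost it in 7 of the 8 fits (all but the one without Mtm1-/y library 3). Psma5 and Psmd5 lost it in 6 fits, without any 1 of the WT libraries or Mtm1-/y library 1 or 2. Psma7 also lost it in 6, without any 1 of the WT libraries or Mtm1-/y library 1 or 3, and Psmd14 in 6, without WT library 1, 3 or 4 or Mtm1-/y library 1, 2 or 3. Psmd3 lost it in 4 (WT library 1, 2 or 3 or Mtm1-/y library 1) and Psma3 in 1 (WT library 2). The number called fell from 13 to 7 without WT library 1, 2 or 3 or Mtm1-/y library 1, and to 8 without WT library 4. Groups without overlap were found for 12 members with Mtm1-/y above and 4 with Mtm1-/y below, beside 14.7% and 16.0% of all genes tested (30.7% in either direction).

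In diaphragm, heart and liver no member was called. edgeR's adjusted p was under 0.05 for 0 of 43 members in each, and DESeq2 also called 0 in each. In liver edgeR did not call Mtm1 itself either (log2 fold change -1.60, SE 0.23, edgeR adjusted p = 0.365), though its groups did not overlap. The spread between libraries (edgeR's biological coefficient of variation) was 0.39 in diaphragm, 0.21 in heart and 0.23 in liver, beside 0.17 in gastrocnemius. The lack of calls thus does not show that the members were unchanged in these tissues. Of all genes edgeR called 0.0119% in diaphragm, 0.00656% in heart and 0% in liver, and DESeq2 2.37%, 0.453% and 0.163% of those with an adjusted p. At an unadjusted p under 0.05 the members numbered 3, 3 and 0 beside 10.8%, 8.88% and 4.24% of all genes. The log2 fold change lay above 0 for 37 of 43 members in diaphragm (48.2% of all genes), 37 in heart (49.7%) and 23 in liver (51.1%). The medians of the members were 0.15, 0.07 and 0.012, beside -0.011, -0.0016 and 0.0055 over all genes. With the library totals as the scale, the count above 0 was 38 in diaphragm, 24 in heart and 18 in liver. With each heart library left out in turn, the members' median in heart ran from 0.027 to 0.11. The size of the heart shift thus depends on single libraries. WT heart library 4 stood apart from the other WT hearts, with a chi-square per gene between libraries of 146 to 239. Among the others it was 17.2 to 34.3. The members' share of counts in WT heart library 4, 0.320%, was the lowest in WT heart.

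In diaphragm the smallest p belonged to Psmd11, at 80.6, 91.6, 83.9 and 79.1 CPM in WT and at 127, 102 and 106 CPM in Mtm1-/y. The groups did not overlap, and the log2 fold change of 0.42 (SE 0.12, edgeR adjusted p = 0.307) was not called. Over the 43 members 12 had every Mtm1-/y library above every WT library and 0 the reverse, beside 5.40% and 4.57% of all genes (9.97% in either direction). Psmb8 and Psmb9 ran the other way with a wide error, with log2 fold changes of -0.30 (SE 0.28) and -0.46 (SE 0.30), neither called. Psmb8 lay at 13.0, 13.6, 7.83 and 16.3 CPM in WT and at 10.8, 12.6 and 7.55 CPM in Mtm1-/y. The lowest values, 7.83 and 7.55 CPM, were in the libraries with the least hepatocyte RNA, at 482 and 933 plain CPM. WT libraries 1, 2 and 4 held 40263, 25294 and 31262 plain CPM of hepatocyte markers, and Mtm1-/y libraries 1 and 2 held 3338 and 50346. Liver RNA was thus unequal between the genotypes. Its part in Psmb8 and in the direction of the other members was not tested.

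In heart the smallest p was that of Psma5, at 13.2, 14.6, 11.8 and 11.7 CPM in WT and at 15.6, 14.8, 14.7 and 15.7 CPM in Mtm1-/y. The groups did not overlap, and the log2 fold change was 0.24 (SE 0.09, edgeR adjusted p = 0.546). It was the 1 member without overlap in heart, where 2.10% of all genes lay above and 2.16% below in Mtm1-/y (4.26% in either direction). In liver it was that of Psmb3, at 25.0, 23.7 and 26.0 CPM in WT and at 20.5, 21.2, 22.0 and 23.0 CPM in Mtm1-/y, which gave -0.20 (SE 0.09, edgeR adjusted p = 0.969). Here the lowest WT library lay just above the highest Mtm1-/y library. In liver 1 member lay above without overlap and 2 below, beside 2.62% and 3.47% of all genes (6.09% in either direction).

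**Figure D3:**
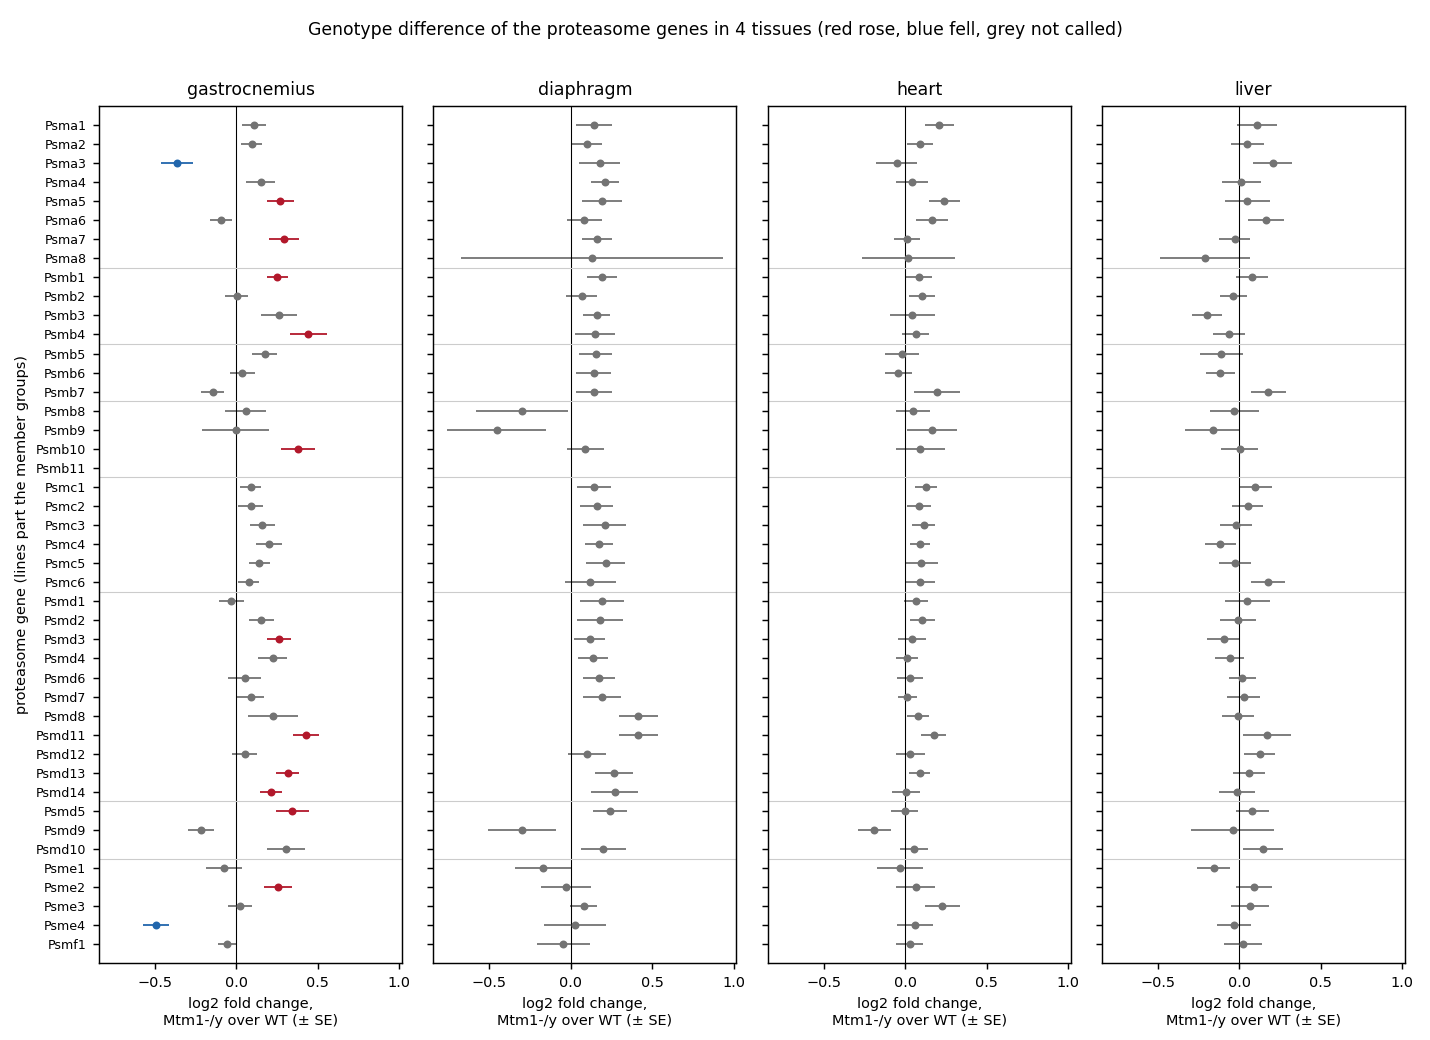
Log2 fold change of Mtm1-/y over WT with its SE (x axis) for each proteasome gene (y axis, in member groups parted by lines) in the 4 tissues. Red points rose, blue points fell and grey points were not called. Called genes appear in gastrocnemius alone, the tissue with the least spread between libraries, and 37 of 43 points lie above 0 in diaphragm and in heart. With the library totals as the scale these counts were 38 in diaphragm and 24 in heart. With each heart library left out in turn, the median of the heart points ran from 0.027 to 0.11. The part of unequal liver RNA in the diaphragm points was not tested.

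Whether the genotype effect itself differed between tissues was tested as a contrast of both effects in 1 fit, and the 3 contrasts share the gastrocnemius libraries. The fit took libraries of different tissues as separate mice, which the sources used here do not settle. Psme4 differed between gastrocnemius and heart, with an effect lower by 0.57 on the log2 scale in gastrocnemius (contrast -0.57, SE 0.14, edgeR adjusted p = 0.0102), the 1 member called of 43 where 19.8% of all genes were, 9.89% higher and 9.94% lower. In heart Psme4 lay at 417, 444, 466 and 344 CPM in WT and at 424, 410, 480 and 430 CPM in Mtm1-/y, and these groups overlapped. Against liver 2 members were called (6.34% of all genes, 2.71% higher and 3.63% lower), Psma3 (contrast -0.60, SE 0.15, edgeR adjusted p = 0.0313) and Psme4 (-0.49, SE 0.14, adjusted p = 0.0488). In liver Psma3 lay at 14.4, 14.5 and 14.4 CPM in WT and at 14.6, 15.4, 17.4 and 18.98 CPM in Mtm1-/y. Its values were thus lower in Mtm1-/y gastrocnemius and higher in Mtm1-/y liver. The liver difference alone was not called (log2 fold change 0.20, SE 0.12, edgeR adjusted p = 0.969). Against diaphragm 0 members were called, beside 0.280% of all genes, and 3 had an unadjusted p under 0.05, beside 12.8% of all genes. These were Psma3 (contrast -0.53, SE 0.16), Psme4 (-0.51, SE 0.20) and Psmb7 (-0.27, SE 0.12). For Psma3 and Psme4 the size was near that called against liver, with a wider error, so the absence of a call does not set diaphragm apart. DESeq2 called 2 members against heart, 2 against liver and 0 against diaphragm, beside 22.0%, 11.9% and 2.04% of all genes with an adjusted p. The call of Psme4 against heart and both calls against liver were lost with the library totals as the scale, on which 35 members were called against heart (42.0% of all genes), 28 against liver (20.9%) and 0 against diaphragm (1.56%), each with a higher effect in gastrocnemius. Those against liver were not stable to the libraries either: 0 members were called without any 1 of the WT liver libraries 1, 2 and 3, WT gastrocnemius libraries 2 and 4, Mtm1-/y gastrocnemius library 1 or Mtm1-/y liver library 4, and 1 without WT gastrocnemius library 3, Mtm1-/y gastrocnemius library 2 or 3 or Mtm1-/y liver library 3. Against heart 2 were called without Mtm1-/y gastrocnemius library 4 or WT heart library 2.

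The 3 comparisons of WT tissues share the WT gastrocnemius libraries, and they too took libraries of different tissues as separate mice. Levels per length (RPKM, which is CPM after TMM over the WT libraries divided by the exon length in kilobases) were highest for the alpha subunit gene Psma6 in every tissue, at 129 ± 10.6 RPKM in gastrocnemius (SD, n = 4), 81.8 ± 5.12 in diaphragm (n = 4), 69.7 ± 8.27 in heart (n = 4) and 101 ± 4.61 in liver (n = 3). The exon length counts every annotated exon of a gene, so ranks between genes, here and below, depend on the annotation. The lowest of the members that passed the filter in gastrocnemius were Psmb9, at 0.617 ± 0.164 RPKM, and Psmb8, at 1.13 ± 0.0930 RPKM. Psmb11, the thymus-specific catalytic subunit, had 14 counts in all 30 libraries. Setting WT heart against WT gastrocnemius, 39 of 43 members were called (61.3% of all genes, 32.6% higher and 28.7% lower), of which 6 were higher and 33 lower in heart. The members' median log2 difference was -0.59, beside 0.08 over all genes. In diaphragm 6 were higher and 29 lower (54.4% of all genes called, 30.6% higher and 23.8% lower), with a median of -0.40 beside 0.07. In liver 16 were higher and 16 lower (79.5% of all genes called, 37.4% higher and 42.1% lower), with a median of 0.0013 beside -0.10. Psma8, at 0.0405 RPKM in WT gastrocnemius and too low to be tested there, is counted among the higher members in all 3 comparisons. It passed the filter only through tissues in which it was higher, so its direction is not read as a result.

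All 6 ATPases and all 11 regulatory subunits without ATPase activity were lower in heart and in diaphragm than in gastrocnemius, as were the 3 constitutive catalytic subunits. Among the members lower than in gastrocnemius, Psma3 differed most in heart, at 10.4 ± 0.943 RPKM in gastrocnemius and 2.86 ± 0.297 in heart (log2 difference -1.86, SE 0.09), and Psme4 in diaphragm, at 52.4 ± 4.21 RPKM in gastrocnemius and 22.1 ± 3.80 in diaphragm (log2 difference -1.24, SE 0.14). In liver all 4 beta subunits without a catalytic site were higher than in gastrocnemius, while 5 of the 6 ATPases were lower. These directions too are relative to the scaling. With the library totals as the scale the median of all genes moved by 0.59 in heart, 0.52 in diaphragm and 0.04 in liver, the members called were 12 higher and 16 lower in heart, 18 higher and 8 lower in diaphragm and 19 higher and 16 lower in liver (72.6%, 69.4% and 79.0% of all genes called), and 12 of the 39 calls in heart and 9 of the 35 in diaphragm changed sign. The members' median minus that of all genes, which such a shift leaves as it is, was -0.67 in heart and -0.47 in diaphragm.

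**Figure D4:**
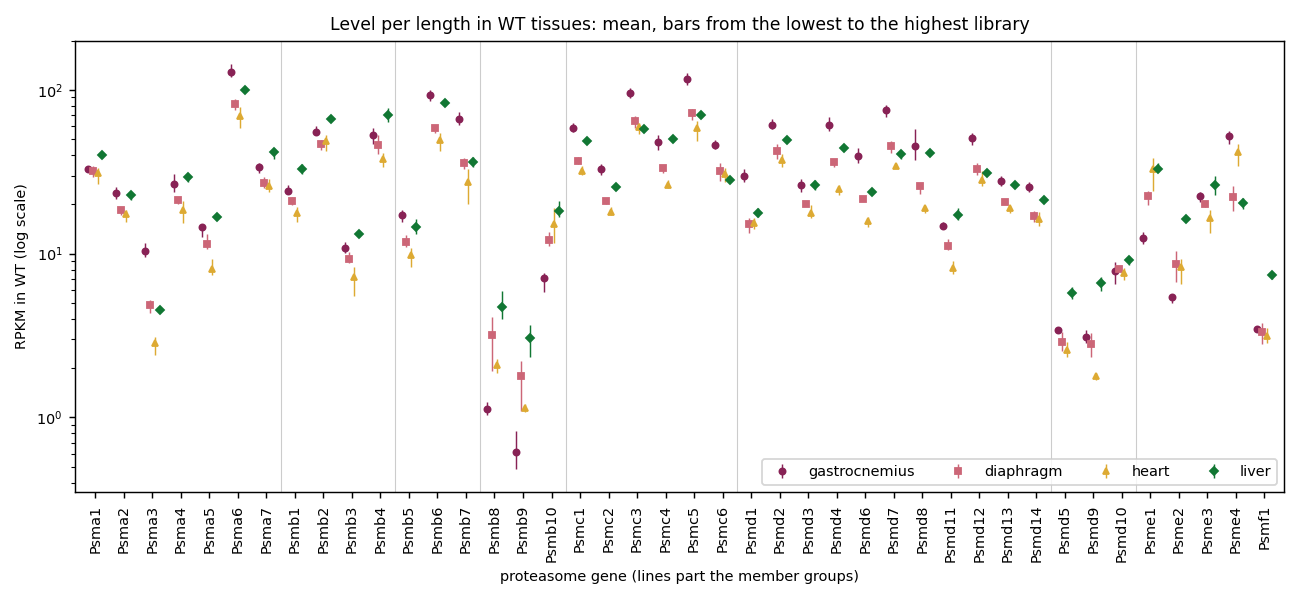
RPKM in WT libraries on a log axis (y) for the proteasome genes other than Psma8 and Psmb11 (x), with 1 marker a tissue. Points are means and bars run from the lowest to the highest library. By annotated exon length Psma6 is the highest gene in all 4 tissues, and Psmb8, Psmb9, Psmb10, Psme1 and Psme2 are lowest in gastrocnemius.

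The interferon-inducible members were lowest in gastrocnemius. Psmb8 was at 1.13 RPKM in gastrocnemius, 3.20 in diaphragm, 2.08 in heart and 4.73 in liver (log2 differences to gastrocnemius 1.503, 0.88 and 2.06, with SE of 0.20 to 0.21). Psmb9 was at 0.617, 1.79, 1.15 and 3.05 RPKM in the same order, and Psmb10 at 7.10, 12.2, 15.1 and 18.3 RPKM. The genes of the PA28 cap followed, Psme1 at 12.5, 22.6, 33.1 and 33.0 RPKM and Psme2 at 5.41, 8.61, 8.33 and 16.2 RPKM. All 5 were called higher than in gastrocnemius in each of the 3 other tissues. Psmb8 and Psmb9 (chr17:34197721-34201454 and chr17:34181987-34187764) are neighbours in the MHC class II region, as Psme1 and Psme2 are on chromosome 14. Of the 20 interferon and MHC class I genes tested, 17 were higher in heart, 18 in diaphragm and 16 in liver. Of all genes 32.6%, 30.6% and 37.4% were higher, which is also the background of the marker counts that follow. Leukocyte markers were also lowest in gastrocnemius, with 11, 12 and 9 of the 12 higher in heart, diaphragm and liver, but among these 3 tissues they were lowest in liver, where Psmb8, Psmb9, Psmb10 and Psme2 were highest. Their sums were 32.4 to 57.6 plain CPM in WT gastrocnemius, 332 to 803 in diaphragm, 291 to 413 in heart and 160 to 184 in liver, and none was at 0 in all WT libraries. Their part in the levels was not tested. The diaphragm libraries 1, 2 and 4 of WT held the most hepatocyte RNA. Without them, with 1 diaphragm library left, which was assumed to vary like the other groups, the log2 differences were 0.83 for Psmb8 and 0.90 for Psmb9, both called, 22 members were called in place of 35, Psme2 was not called (log2 difference 0.38, edgeR adjusted p = 0.120), and Psma8, a testis-specific alpha subunit at 0.156 RPKM in diaphragm, went from 1.91 to -0.26.

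The share of each catalytic pair taken by the immunoproteasome gene, per length of exon, sets both kinds of subunit side by side within a library and so does not depend on the scale. It does depend on the exon lengths, such as 3381 bases for Psmb8 and 899 for Psmb5 over all annotated exons. The size of a share thus rests on the annotation, while a comparison of the same pair between groups uses the same lengths. Psmb8 made 6.19% ± 0.240 of Psmb8 and Psmb5 together in WT gastrocnemius (SD, n = 4), 21.1% ± 4.76 in diaphragm (n = 4), 17.6% ± 1.83 in heart (n = 4) and 24.4% ± 2.37 in liver (n = 3). WT diaphragm library 3, with the least hepatocyte RNA, was at 14.0%, and libraries 1, 2 and 4 were at 22.3%, 24.0% and 24.0%. The part of liver RNA in the diaphragm shares was not tested. The gastrocnemius libraries, from 5.95% to 6.47%, lay below all WT libraries of the other tissues, which began at 14.0%. Psmb9 made 0.650% ± 0.148 of its pair with Psmb6 in WT gastrocnemius and 2.28% to 3.54% on average in the other tissues. For this pair WT diaphragm library 3 was at 1.84%, below its group's mean of 2.96%. Psmb10 made 9.71% ± 1.28 of its pair with Psmb7 in WT gastrocnemius and 13.3% ± 0.899 in Mtm1-/y gastrocnemius (n = 4 and 4), and the Mtm1-/y libraries, from 12.6% to 14.6%, lay above the WT libraries, from 8.14% to 11.2%. For Psmb8 the Mtm1-/y share was 5.72% ± 0.427 and for Psmb9 0.638% ± 0.0939, both overlapping WT. In diaphragm, heart and liver the genotypes overlapped for all 3 pairs.

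**Figure D5:**
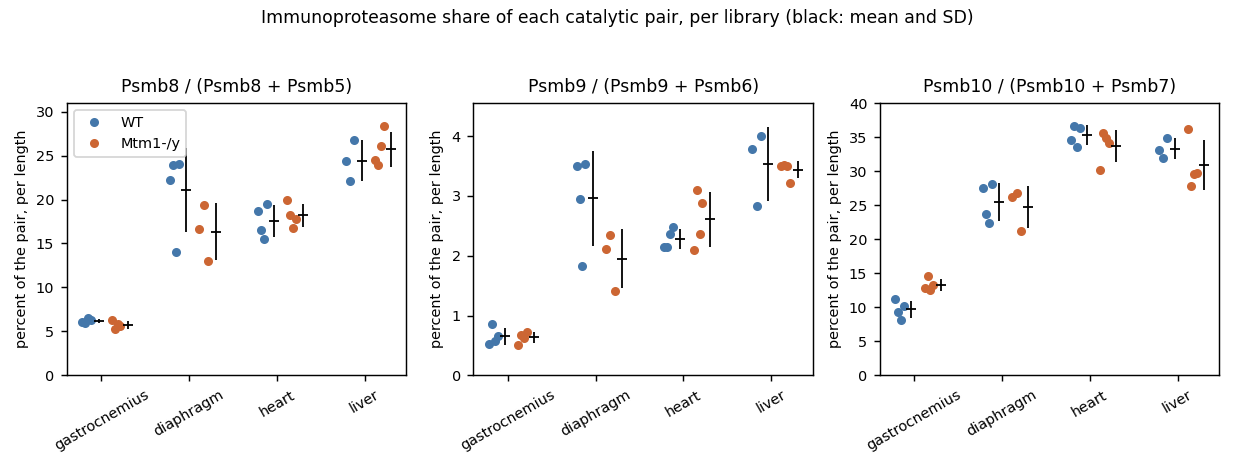
Share of the immunoproteasome gene in each catalytic pair (percent per length of exon, y axis from 0) in the 4 tissues (x axis). Points are libraries, WT in blue and Mtm1-/y in orange, and black marks give the mean and SD. Gastrocnemius is lowest in all 3 panels, and its WT and Mtm1-/y libraries part for Psmb10 alone.

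Other genes of the pathway were taken from lists of genes that act around the proteasome, and 29.0% of all genes called in gastrocnemius is again the background. Of 7 assembly chaperones and subunits with other symbols 2 rose and 0 fell: Pomp, which guides the assembly of the core particle, went from 73.3 ± 5.25 to 103 ± 9.86 CPM (SD, n = 4 and 4; log2 fold change 0.49, SE 0.08, edgeR adjusted p = 0.00217), and Psmg3, an alpha ring chaperone, from 5.18 ± 0.217 to 6.64 ± 0.848 CPM. Of 20 ubiquitin genes, shuttle factors and proteasome-bound enzymes 0 rose and 5 fell. Among them Ecpas, an adaptor that ties the core and regulatory particles together, went from 369 ± 22.4 to 250 ± 10.1 CPM (log2 fold change -0.56, SE 0.07, edgeR adjusted p = 0.000489). Uchl5, a deubiquitinase of the regulatory particle, and Ubqln4, a shuttle factor, both fell, with log2 fold changes of -0.34 and -0.34. Of 8 genes listed for the transcription of proteasome genes, with Akirin2 for the nuclear import of proteasomes among them, 2 rose and 1 fell. Nfe2l2, the stress-responsive factor, rose by 0.42 and Akirin2, which brings proteasomes into the nucleus, by 0.36, while Ngly1, the deglycosylase that activates the factor Nfe2l1, fell with -0.32. Nfe2l1 itself had a log2 fold change of 0.25 and was not called (edgeR adjusted p = 0.0772).

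The interferon and MHC class I list had 5 rises and 2 falls among 20 genes tested in gastrocnemius. Cxcl10, a chemokine, went from 0.0455 ± 0.0255 to 3.28 ± 1.45 CPM, and Tap2, which carries proteasome peptides into the endoplasmic reticulum, from 12.2 ± 2.00 to 17.1 ± 1.01 CPM. The WT level of Cxcl10 is below the filter on low counts, which it passed through the Mtm1-/y libraries alone. Its direction was thus set by the filter, although it is counted among the 5 rises. The interferon-gamma receptor subunit gene Ifngr2 fell, with a log2 fold change of -0.27. Of the 8 genes of the autophagy-lysosome route 3 rose and 0 fell, with log2 fold changes of 0.84 for the lysosomal protease Ctsl, 0.50 for Gabarapl1 and 0.51 for Map1lc3a. The 8 ubiquitin ligases of muscle divided into 3 that rose and 2 that fell. Fbxo30 rose by 0.83 (SE 0.11), while Asb2 and Fbxo31 fell, with log2 fold changes of -0.81 (SE 0.11) and -0.55 (SE 0.10). In diaphragm, heart and liver edgeR called 0 genes of these 6 lists, and DESeq2 1, in diaphragm.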

How the data were processed

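The authors trimmed reads with cutadapt 1.10, aligned them to mm10 with STAR 2.5.3a, counted uniquely aligned, unambiguous reads per gene with HTSeq 0.6.1p1, and deposited raw counts for 36103 genes in 30 libraries. Whether counting used strand is not given in the sources used here, and reads shared with near-identical copies of a gene were dropped. The counts were analysed in R 4.3.3. Each tissue was fitted on its own with edgeR 4.0.16: low genes were dropped (filterByExpr, minimum count 10), libraries were scaled by TMM, and the quasi-likelihood test was adjusted by Benjamini-Hochberg across every gene that passed. Differences of genotype effects came from 1 fit of both tissues, and WT tissues from 1 fit of the WT libraries. DESeq2 1.42.0 and limma 3.58.1 (voom) were alternatives, beside other scalings and filters and leaving out each library. Coordinates are from GENCODE M21 (GRCm38), as are exon lengths, each the union of all annotated exons of a gene. The members and lists were chosen with earlier results of these data known. Genes named with library values were the immunoproteasome genes, up to 3 called members a group with the smallest gastrocnemius p (or the 1 with the smallest p) and the smallest p in each other tissue at a mean of at least 5 CPM, and the named genes of other lists followed the same rule. Psmd14, Psme4 in heart, Psma3 in liver, Nfe2l1 and members given by fold change alone were named after their values were seen. Figures were drawn with matplotlib.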

Additional observations from a re-analysis of the deposited data

Results flagged for a closer look

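Of 74 groups of 4 libraries whose values were checked for 1 library far from the others, 3 were flagged, and chance flags about 1 in 20 such groups. WT gastrocnemius library 3 was low for Psma5, at 15.2 CPM beside 18.0 to 18.2 in the other 3, and for Psme2, at 8.03 CPM beside 8.85 to 8.91. In Mtm1-/y liver, 1 library had a Psmb9 share of its pair with Psmb6 of 3.22%, beside 3.50% to 3.52% in the other 3.

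The genotype effect differed between tissues, by a test of the difference, for Psme4 (gastrocnemius minus heart -0.57, edgeR adjusted p = 0.0102, and gastrocnemius minus liver -0.49, adjusted p = 0.0488) and for Psma3 (gastrocnemius minus liver -0.60, adjusted p = 0.0313). In gastrocnemius both genes were lower in 4 of 4 Mtm1-/y libraries than in any WT library.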

How the results depend on the processing

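The number of members called in gastrocnemius was 13, and it was 13 with DESeq2's size factors, 9 without the filter on low counts, 12 by DESeq2, 13 by limma voom with sample weights, 8 in an edgeR fit of all 30 libraries, 0 with a log2 fold change over 1 also required, and 7 to 13 with each library left out. The following alternatives were chosen after seeing the data: library totals as the scale, liver-enriched genes left out of the WT diaphragm comparison, the hepatocyte score as a covariate, the libraries richest in hepatocyte RNA left out, the Mtm1-/y liver library lowest in leukocyte markers left out, and the most abundant genes left out. Library totals gave 37 members called in gastrocnemius, and leaving out the 100 most abundant genes and the skeletal muscle markers gave 13. In diaphragm, heart and liver 0 members were called under every alternative run, among them the hepatocyte score and 1113 liver-enriched genes left out in diaphragm. For the effect in gastrocnemius against heart, 1 member was called, 2 by DESeq2, 35 with library totals and 1 to 2 with each library left out. Against liver, 2 were called, 0 without the filter on low counts, 28 with library totals and 0 to 2 with each library left out. Against diaphragm 0 were called throughout. In WT diaphragm 35 members were called, 22 with 1 diaphragm library left (where the Psma8 log2 difference turned to -0.26), 33 without liver-enriched genes and 30 to 36 with each library left out. In WT heart and WT liver, 38 to 39 and 30 to 35 were called with each library left out. In a fit with the replicate number as a block, 10 members were called in gastrocnemius, where Psma7, Psmd14 and Psme2 lost their call, 1 in gastrocnemius against heart, 0 against liver, and 39, 34 and 32 in WT heart, diaphragm and liver. Same-numbered gastrocnemius libraries of both genotypes deviated from their group means with correlations of -0.04 to 0.10, and those of diaphragm, heart and liver with -0.64 to 0.46, -0.55 to 0.26 and -0.05 to 0.34. As both signs occurred in every tissue, the genotypes were compared without pairing by number. These correlations set different mice of 1 tissue side by side, so they cannot show whether libraries of different tissues share mice.

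With library totals the log2 difference turned positive in WT heart for Psmb4 0.11, Psmb1 0.13, Psma2 0.17, Psmd3 0.033, Psmc6 0.015, Psmd13 0.043, Psmd5 0.20, Psma7 0.22, Psma4 0.074, Psme4 0.26, Psmb3 0.0015 and Psme3 0.15, and in WT diaphragm for Psma2 0.19, Psmd3 0.14, Psmd11 0.12, Psmd13 0.10, Psmd5 0.29, Psma7 0.21, Psmb2 0.30, Psma4 0.19 and Psma5 0.18. Of 2459 values of single called members under alternatives, 2272 kept their direction and call, 165 kept their direction without the call and 22 changed direction. A member that was not called cannot be taken as equal between genotypes.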
